A study of Mus musculus with 32 samples.

Results

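The inhibitory transmission genes followed here are 8 genes of 42524 in the count table. They were listed by name, with earlier results of these data known. They encode the enzymes that make GABA (Gad1 and Gad2), the transporters that move GABA and glycine (Slc32a1, Slc6a5 and Slc6a9), and the glycine receptor with its anchor (Glra1, Glrb and Gphn). RNA from spinal cord was sequenced from 32 mice in 8 groups of 4. The mice were WT littermates on C57BL/6J or carried the G93A transgene (B6-Tg(SOD1-G93A)1Gur/J), which expresses a mutant human SOD1 and serves as a model of amyotrophic lateral sclerosis. Within each genotype the mice were untreated or received the nitrone OKN-007 in drinking water, and their cords were taken at an age of 95 or 155 days. The labels give the earlier age as 90 days and the study's methods give 95 days, which is used here. The study's methods for sequencing do not name the dose. In its design, the cohorts taken at 95 and 155 days were those of the higher of 2 doses, for which only females were used. Treatment in these cohorts began before disease onset, except in a further cohort treated from 95 days and taken at 155 days. Which of these cohorts gave the sequenced mice is not stated. Each sample was a piece of whole spinal cord, so fewer cells of a type and less RNA per cell cannot be told apart.

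Inhibitory neurons of the spinal cord release GABA, glycine or both. GABA is made from glutamate by the glutamate decarboxylases GAD67 (Gad1) and GAD65 (Gad2), whereas glycine is concentrated in nerve endings by the neuronal transporter GlyT2 (Slc6a5). Both transmitters are loaded into vesicles by VGAT (Slc32a1). After release, glycine is cleared largely by GlyT1 (Slc6a9), which is found mostly on astrocytes. The adult glycine receptor is a chloride channel built from alpha1 (Glra1) and beta (Glrb) subunits, and the beta subunit binds gephyrin (Gphn), the scaffold that holds glycine and GABA-A receptors at the synapse. Renshaw cells and other inhibitory interneurons act on motor neurons through these proteins.

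In GENCODE M21 on GRCm38, all 8 members are protein-coding genes. Gad1 lies at chr2:70553072-70602014, Gad2 at chr2:22622205-22693874 and Slc32a1 at chr2:158610767-158615748, all on the plus strand. Slc6a5 lies at chr7:49910146-49963856, Slc6a9 at chr4:117834506-117875198 and Gphn at chr12:78226379-78684772, also on the plus strand. Glra1 at chr11:55514238-55608198 and Glrb at chr3:80843599-80913660 are on the minus strand. RefSeq promoters (GRCm38.p6) were found for 7 of the 8 members, with 10 start sites among them. The 250 bases before a start are printed for the members with the largest falls in untreated G93A mice at 155 days. Only windows that hold no exon base of the same gene in GENCODE M21 are printed. Any link between these sequences and the falls was not tested. Capitals mark E-boxes (CANNTG on both strands), the short motif read by basic helix-loop-helix factors. The Slc6a5 window is upstream of the second of its RefSeq starts.
Slc32a1 (chr2:158610508-158610757, plus strand): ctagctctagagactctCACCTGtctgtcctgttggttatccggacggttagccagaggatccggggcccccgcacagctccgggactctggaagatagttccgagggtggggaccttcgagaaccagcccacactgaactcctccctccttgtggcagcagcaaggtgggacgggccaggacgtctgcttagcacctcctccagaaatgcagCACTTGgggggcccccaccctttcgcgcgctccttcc
Glrb (chr3:80913661-80913910, minus strand): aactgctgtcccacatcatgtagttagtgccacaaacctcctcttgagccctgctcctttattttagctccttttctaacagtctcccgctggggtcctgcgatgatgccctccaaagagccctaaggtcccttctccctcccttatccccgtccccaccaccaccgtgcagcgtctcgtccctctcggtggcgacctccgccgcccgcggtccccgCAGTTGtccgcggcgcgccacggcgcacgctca
Slc6a5 (chr7:49911450-49911699, plus strand): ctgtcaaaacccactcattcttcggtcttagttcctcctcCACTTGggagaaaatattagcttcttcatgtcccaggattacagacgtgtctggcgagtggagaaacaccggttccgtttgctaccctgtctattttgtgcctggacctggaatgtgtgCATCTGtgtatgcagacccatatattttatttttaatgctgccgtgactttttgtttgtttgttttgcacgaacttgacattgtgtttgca
Slc32a1 and the second Slc6a5 start each held 2 E-boxes, and Glrb held 1. Of all 32851 RefSeq promoter windows of this length, 66.2% held at least 1, so the motif was common in promoters at large. The windows of Slc32a1, Glrb and the second Slc6a5 start held 12, 20 and 7 CpG dinucleotides, against a median of 6 over all windows. Their GC contents were 62.4%, 62.4% and 43.6%.

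The library totals ran from 19701722 to 30138257 counts. Levels are given as edgeR's CPM, counts relative to library size after TMM scaling over the 32 libraries. All members were far above the detection limit, since 3 counts in the smallest library equal 0.152 CPM and the lowest single value was 719 counts, for Gad2 in the OKN-007 treated WT mouse numbered 5 at 95 days. The markers of spinal cord tissue were present, with pan-neuronal genes summing to 8296 to 9815 CPM in untreated WT mice at 155 days and oligodendrocyte genes to 21178 to 23189 CPM. G93A libraries at 155 days differed from WT in 3 further ways that bear on the members. The 8 pan-neuronal genes were lower in untreated G93A mice, at a sum of 4463 to 6082 CPM. The 8 astrocyte genes summed to 13744 to 17278 CPM against 4659 to 5173 in WT, and the 8 microglial genes to 1359 to 2466 against 311 to 387. Gfap made up most of the astrocyte sum in untreated G93A mice (mean 11452 CPM, against 2189 in untreated WT). The median log2 fold change of the 8 astrocyte genes was 0.69. The 9 caudal Hox genes, which mark position along the cord, summed to 59.97 to 204 CPM in untreated G93A against 223 to 274 in untreated WT mice, and Hoxd10 had 0 and 1 counts in the untreated G93A mice numbered 9 and 10. Albumin (Alb), a liver transcript, reached 142 and 85.9 CPM in untreated G93A mouse 12 and treated G93A mouse 15. Of 48 within-group pairs of libraries, 0 held identical counts.

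Compared per kilobase of exon in untreated WT mice at 155 days, Slc32a1 was the most abundant member, at 80.8 ± 7.58 CPM per kb (mean ± SD, n = 4). The length used was that of all exons merged over the transcripts of a gene. It was 2797 bases for Slc32a1, with 1 transcript, and 7639 bases for Gad1, with 8 transcripts. Merged exons can be longer than a single mRNA, so the order depends in part on this choice, which the SDs do not cover. Glrb followed at 57.8 ± 5.48, Slc6a5 at 45.4 ± 7.01, Slc6a9 at 39.4 ± 3.42 and Glra1 at 37.1 ± 4.25 CPM per kb. The decarboxylases and the scaffold were lowest, with Gad2 at 19.0 ± 1.93, Gad1 at 18.1 ± 0.993 and Gphn at 17.98 ± 1.22 CPM per kb. Slc32a1 and Glrb were separated by more than their SDs, and so were Glra1 and Gad2, while the SDs of the other neighbours in this order overlapped. At 95 days the order in untreated WT mice was different, since Glra1 came first at 53.0 ± 5.93 CPM per kb. Slc32a1 (48.1 ± 10.6), Glrb (44.2 ± 6.45) and Slc6a9 (39.1 ± 2.78) followed with overlapping SDs. Slc6a5 stood lower at 24.9 ± 6.51 CPM per kb. Gphn (15.1 ± 1.36), Gad1 (13.4 ± 0.966) and Gad2 (10.8 ± 1.21) were last, with Gad2 apart from both others by more than the SDs, while Gphn and Gad1 overlapped. The plot of CPM by mouse shows all 32 values of each member.

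**Figure D1:**
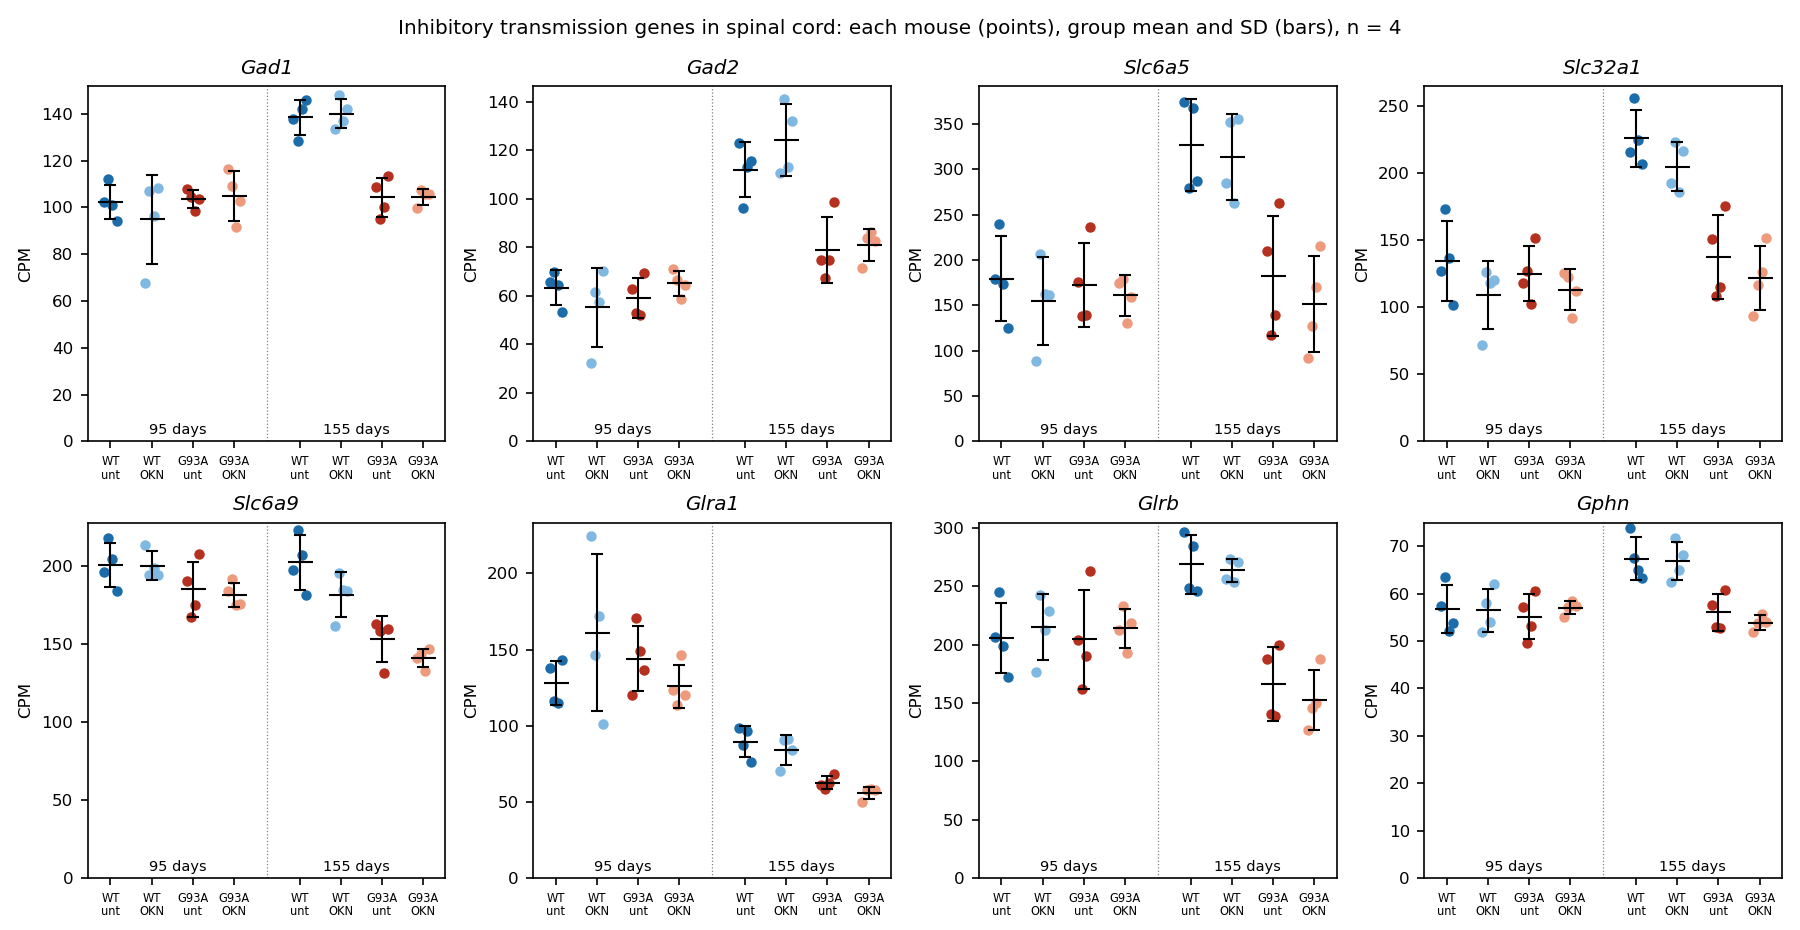
CPM (vertical axis, from 0) of each member in the 8 groups, with 1 point per mouse and bars for the mean and SD (n = 4). At 155 days the means of both G93A groups sit below the means of both WT groups for every member on this scale, whereas at 95 days the groups overlap for all members except Slc6a9 under treatment.

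At 155 days all 8 members were lower in untreated G93A than in untreated WT mice when counts were scaled to all genes, by 0.841-fold for Gphn to 0.564-fold for Slc6a5 (ratios of G93A to WT). The question addressed was what differs in the cord of G93A mice late in disease. All 8 passed the test (edgeR's quasi-likelihood test, two-sided, Benjamini-Hochberg adjusted p under 0.05 over 18675 genes), against 18.2% of all genes called lower. Groups did not overlap for 7 of the 8, against 15.3% of all genes whose 4 G93A values were all below the 4 WT values. The median log2 fold change was -0.50 over the members and 0.00015 over all genes. The direction for Gad1, Gad2, Slc6a9, Glra1 and Gphn turned when counts were scaled to pan-neuronal genes, as set out after the treated comparison.

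The enzymes that make GABA fell moderately. Gad1 was at 138, 128, 142 and 146 CPM in the untreated WT mice and at 109, 94.8, 100.2 and 113 in the untreated G93A mice (each in the order of sample number). The lowest WT mouse thus stood above the highest G93A mouse. The log2 fold change was -0.39 ± 0.069 (SE), with an adjusted p of 0.000171 by edgeR. Gad2 was at 123, 96.2, 113 and 116 CPM in WT and at 74.9, 67.2, 74.6 and 98.4 in G93A mice. Here G93A mouse 12 lay above the lowest WT mouse, and the other G93A mice lay below all WT mice. The log2 fold change of Gad2 was -0.49 ± 0.11, with an adjusted p of 0.00204 by edgeR.

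The neuronal transporters fell most. Slc6a5, the glycine transporter of glycinergic endings, was at 374, 279.5, 367 and 287 CPM in untreated WT and at 209.8, 118, 139 and 263 CPM in untreated G93A mice. The groups did not overlap, and G93A mice 9 and 12 were the highest of their group. Mouse 12 was close to the lower WT mice, and mouse 10 was far below them. Its log2 fold change of -0.83 ± 0.24 had the widest SE among the members (edgeR, adjusted p = 0.00898). Slc32a1, the vesicular transporter shared by GABA and glycine, was at 216, 256, 225 and 207 CPM in WT and at 151, 108, 115 and 176 CPM in G93A mice. All G93A values lay below all WT values, with mice 9 and 12 again the highest of their group. The log2 fold change of Slc32a1 was -0.70 ± 0.14 with an adjusted p of 0.000765 by edgeR. Slc6a9, the mostly glial glycine transporter, was at 198, 224, 207 and 182 CPM in WT and at 163, 158, 131 and 160.0 CPM in G93A mice. In this gene mouse 11 was the lowest and the other G93A mice were close together. The change was -0.39 ± 0.084 on the log2 scale (edgeR, adjusted p = 0.0012). Slc6a9 was thus lower while the astrocyte genes given above were higher.

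The glycine receptor subunits fell as well. Glra1, the ligand-binding alpha1 subunit, was at 98.7, 87.1, 96.2 and 76.0 CPM in untreated WT and at 60.7, 58.4, 62.5 and 68.5 CPM in untreated G93A mice. The G93A mice were tightly grouped, all below the lowest WT mouse. Its log2 fold change was -0.50 ± 0.095 (edgeR, adjusted p = 0.000359). Glrb, the beta subunit that anchors the receptor, was at 296, 249, 285 and 246 CPM in WT and at 188, 140.2, 139 and 199.6 CPM in G93A mice. G93A mice 10 and 11 had almost the same low value, and mice 9 and 12 stood between them and WT. Glrb changed by -0.68 ± 0.12 with an adjusted p of 0.000241 by edgeR. Gphn, the scaffold, changed least. It was at 73.8, 67.5, 64.9 and 63.4 CPM in WT and at 57.7, 53.0, 52.8 and 60.8 CPM in G93A mice, with all G93A values below all WT values. Its log2 fold change was -0.25 ± 0.070 (edgeR, adjusted p = 0.00796). Reads of Gphn may be affected by Gm48226, a transcript on the opposite strand that shares 147 exon bases (3.92%) with it and had 32.7% as many counts; whether counting used strand is not given in the sources used here. Slc6a9 shares 27.8% of its exon bases with Ccdc24 on the opposite strand, which had 1.08% as many counts.

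Among OKN-007 treated mice, all 8 members were also lower in G93A than in WT at 155 days (background 18.2% of 18675 genes called lower), and the groups did not overlap for any of the 8 (background 21.9%). Slc6a5 was at 285, 352, 262 and 356 CPM in treated WT and at 92.5, 128, 170.3 and 215 CPM in treated G93A mice. Its log2 fold change was -1.02 ± 0.24 (edgeR, adjusted p = 0.00184), the largest among the members. Glrb was at 257, 273, 254 and 271 CPM in treated WT and at 127, 145, 149.8 and 188 CPM in treated G93A mice, a change of -0.76 ± 0.12 (edgeR, adjusted p = 6.8e-05). Slc32a1 changed by -0.71 ± 0.14 and Gad2 by -0.58 ± 0.11 on the log2 scale. Glra1 changed by -0.55 ± 0.10, Gad1 by -0.39 ± 0.069, Slc6a9 by -0.33 ± 0.084 and Gphn by -0.28 ± 0.070, with adjusted p-values over these 8 members from 6.8e-05 to 0.00403 by edgeR. Treated G93A mouse 13 was the lowest of the 16 mice of its age for 5 of the 8 members. Treated WT values of all 8 members lay above treated G93A values, so the separation did not rest on that mouse.

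**Figure D2:**
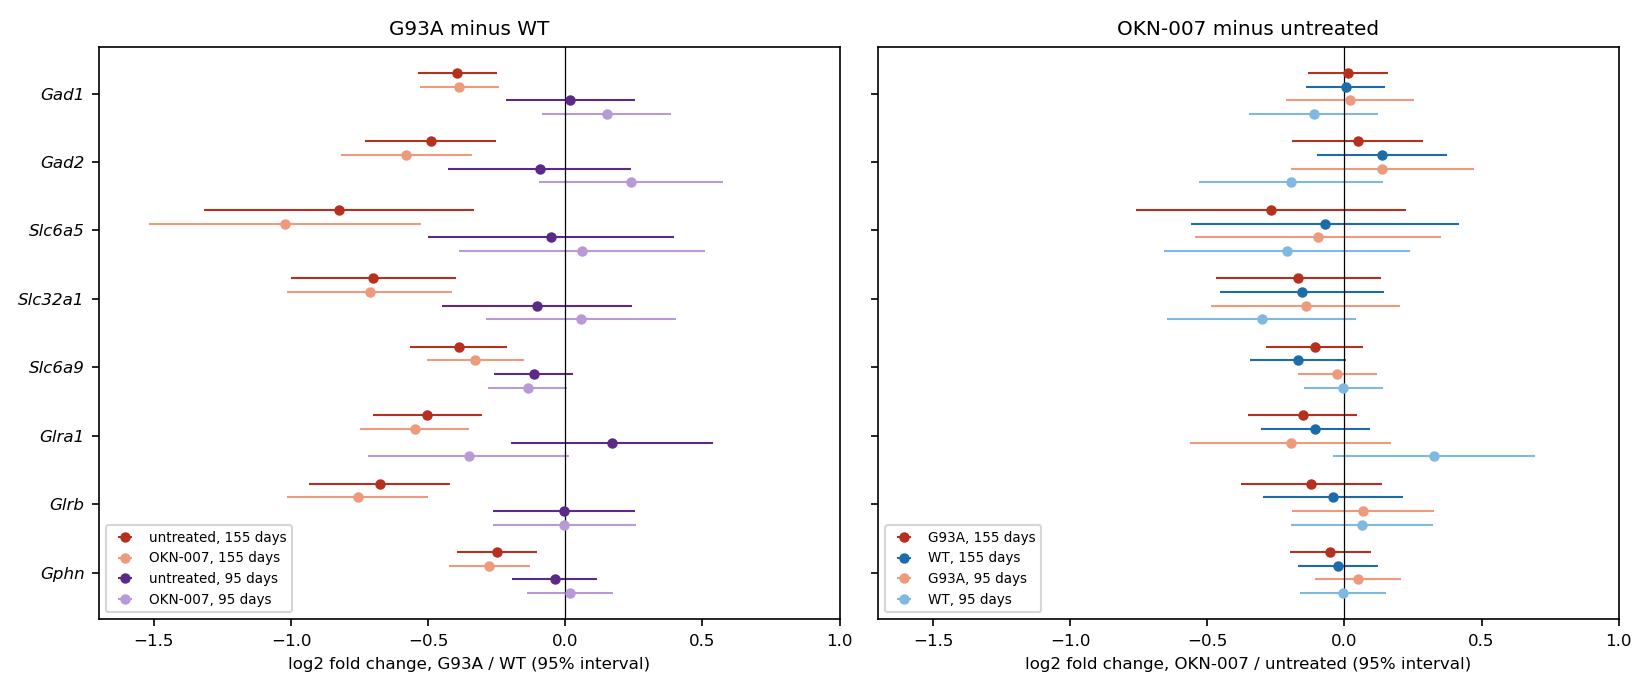
Log2 fold change of each member (points) with its 95% interval (lines) for G93A against WT (left) and OKN-007 against untreated (right), at both ages. At 155 days all G93A intervals lie below 0, while the 95-day and OKN-007 intervals of every member reach across 0.

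The neuronal genes at large moved with the members. All 8 pan-neuronal genes were called lower in untreated G93A mice at 155 days, with a median log2 fold change of -0.56 and a range of -1.10 to -0.46, so the members' median of -0.50 lay inside the range of general neuronal genes. Of 8 excitatory neuron genes 3 were called lower (median -0.36), among them the vesicular glutamate transporter Slc17a6 at -0.91, and of 8 motor neuron genes 7 were called lower (median -0.76). When libraries were scaled to the pan-neuronal genes instead of all genes, the median of all genes shifted to 0.63 in the untreated and 0.74 in the treated comparison, and the members' values are then relative to general neuronal RNA. On this scale Gphn (0.37, adjusted p = 0.000652), Slc6a9 (0.24, adjusted p = 0.0407) and Gad1 (0.23, adjusted p = 0.0246) were higher in untreated G93A mice by edgeR. All 3 were nonetheless below the median of all genes on the same scale. Gad2 (0.13) and Glra1 (0.13) had positive values, and Slc6a5 (-0.23), Slc32a1 (-0.10) and Glrb (-0.066) negative ones, and none of these 5 passed the test. No member was thus called lower relative to pan-neuronal genes in untreated mice. In treated mice the same genes were called, Gad1 at 0.34, Slc6a9 at 0.40 and Gphn at 0.45. Without the neurofilament gene Nefl, the pan-neuronal gene that fell furthest, Gphn alone was called in untreated mice (0.30), and Slc6a5 was called lower in treated mice (-0.42, edgeR, adjusted p = 0.04).

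**Figure D3:**
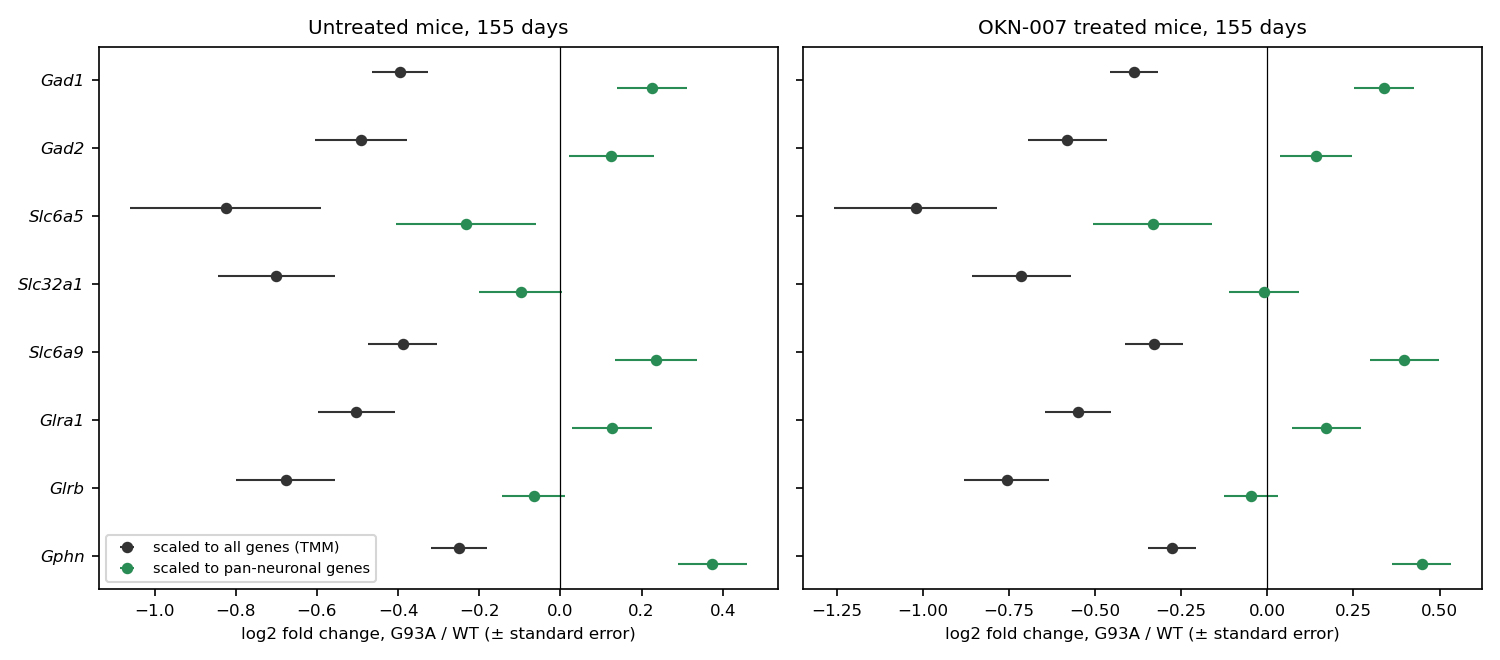
Log2 fold change (± SE) of each member in G93A against WT at 155 days, with libraries scaled to all genes (dark) or to 8 pan-neuronal genes (green). Scaled to all genes every value is below 0. Scaled to pan-neuronal genes Gad1, Gad2, Slc6a9, Glra1 and Gphn lie above 0 and Slc6a5 is the lowest in both panels.

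The caudal Hox genes were also lower in the G93A groups at 155 days, but did not follow the members mouse by mouse. Untreated G93A mice 9, 10, 11 and 12 had caudal Hox sums of 61.9, 59.97, 204 and 172 CPM. Their Slc6a5 levels were 209.8, 118, 139 and 263 CPM. Of these 9 genes 4 were called lower in untreated and 6 in treated G93A mice at 155 days, against the 18.2% and 18.2% of all genes given above. A different stretch of cord and less RNA from the cells that express these genes cannot be told apart. With the mean of these genes as a covariate, 5 of the 8 members stayed past the threshold in the untreated comparison, and the adjusted p-values of Gad2, Slc6a5 and Gphn became 0.126, 0.139 and 0.0879 by edgeR, with log2 fold changes of -0.30, -0.65 and -0.23. In treated mice 6 members stayed past it, with 0.0525 for Slc6a5 and 0.0526 for Gphn (adjusted p by edgeR). With untreated G93A mice 9 and 10, which had almost no Hoxd10, left out, 5 of the 8 were called as well (Gad2 0.0532, Slc6a5 0.0729 and Gphn 0.0636, adjusted p by edgeR). Both mice came from the same group of 4, so the smaller group and the Hoxd10 level cannot be told apart in this fit. With mice 12 and 15, which had high Alb, left out, all 8 were called in both comparisons.

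At 95 days no member was called in either treatment. The count was 0 of 8 in untreated mice, where 0.0% of 18899 genes were called by edgeR and 1126 genes had an unadjusted p under 0.05, and 0 of 8 in treated mice, also with 0.0% called and 747 at the unadjusted threshold. Untreated log2 fold changes of the members ran from -0.12 (Slc6a9, 95% interval -0.26 to 0.029) to 0.17 (Glra1, -0.20 to 0.54). The 95% intervals of Glrb, Slc6a5 and Slc32a1 were -0.26 to 0.25, -0.50 to 0.40 and -0.45 to 0.24, those of Gad1, Gad2 and Gphn -0.22 to 0.25, -0.43 to 0.24 and -0.20 to 0.12. For each of the 8 members the interval stopped above the log2 fold change that the gene had at 155 days. This leaves out the error of the 155-day value. The direct test of the difference between ages, given below, called 3 of the 8. In treated mice the values ran from -0.35 for Glra1 to 0.24 for Gad2. Slc6a9 was at 214, 195, 199 and 195 CPM in treated WT and at 184, 192, 175 and 176 CPM in treated G93A mice, so the groups did not overlap. It was the 1 member of 8 of which this held in treated mice at this age, against 1.28% of all genes with every G93A value below every WT value. Averaged over both treatments its log2 fold change was -0.13 ± 0.049 (95% interval -0.23 to -0.025), with an adjusted p of 0.623 by edgeR, in a comparison where 0.0265% of genes were called and 0 of the 8 members.

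At 95 days a few mice held the ends of the range. Untreated WT mouse 2 had the highest level of the 16 mice of this age for 4 members, and untreated G93A mouse 10 the lowest for 3. Treated WT mouse 5 had the lowest level for 4 members and the highest for Glra1. This last mouse stood at 67.5 CPM for Gad1, 32.3 for Gad2, 89.0 for Slc6a5 and 71.5 for Slc32a1, where the other treated WT mice had at least 96.5, 57.4, 161 and 118 CPM. Its Glra1 level was 225 CPM, against 146, 172 and 101 CPM in the other mice of its group. Glra1 was thus high in this animal while those 4 genes were low. Its pan-neuronal genes were low as well, at a sum of 5772 CPM against 8349, 7437 and 7127 CPM in the other mice of its group.

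Whether the G93A effect differed between the ages was tested in untreated mice. Subtracting the G93A effect at 95 days from that at 155 days gave negative values for all 8 members, from -0.79 for Slc6a5 to -0.23 for Gphn. The receptor genes Glrb (-0.69 ± 0.19, adjusted p = 0.00919) and Glra1 (-0.69 ± 0.21, adjusted p = 0.0168) and the enzyme Gad1 (-0.43 ± 0.14, adjusted p = 0.0234) passed the test by edgeR, 3 of 8 against 8.34% of 19829 genes called lower. For Slc6a9, Slc32a1, Slc6a5, Gphn and Gad2 the adjusted p-values were 0.0625, 0.0668, 0.107, 0.117 and 0.164. This count ran from 2 to 7 over the 16 fits that left out 1 mouse each. It was 7 without untreated WT mouse 2 of the 95-day group, 5 and 6 without untreated G93A mouse 9 or mouse 12 of the 155-day group, and 2 without untreated WT mouse 4 of the 95-day group, where Gad1 lost its call (edgeR, adjusted p = 0.0686). Glra1 lost its call in 1 of the 16 fits (edgeR, adjusted p = 0.0507), and Glrb kept its call in all 16. Without untreated G93A mice 9 and 10 of the 155-day group, which made that group smaller, only Glrb was called. DESeq2 and RLE factors each called 5, adding Slc32a1 and Slc6a9. Scaled to pan-neuronal genes, the values of Gad1, Gad2, Slc6a9 and Gphn turned positive, and Slc6a9 (0.33) and Gphn (0.39) were called in that direction.

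In untreated WT mice 6 members were higher at 155 than at 95 days and Glra1 was lower. The rises took in Slc6a5 (0.87 ± 0.25 log2, from 179 ± 46.9 to 327 ± 50.5 CPM, mean ± SD, n = 4), Gad2 (0.82 ± 0.15, from 63.3 ± 7.14 to 112 ± 11.3 CPM) and Slc32a1 (0.75 ± 0.17, from 135 ± 29.7 to 226 ± 21.2 CPM). Gad1 (0.44 ± 0.10), Glrb (0.39 ± 0.13) and Gphn (0.25 ± 0.072) rose less. The 6 of 8 stood against 15.3% of 19829 genes called higher by edgeR, and 5 of 8 had all 155-day values above all 95-day values, against 11.6% of genes. Glra1 was at 138, 116, 115 and 143 CPM at 95 days and at 98.7, 87.1, 96.2 and 76.0 CPM at 155 days. It was the only member to fall, by 0.52 on the log2 scale (SE 0.15, edgeR, adjusted p = 0.0103), in a comparison with 9.61% of genes called lower. Slc6a9 differed by 0.012 ± 0.078 (adjusted p = 0.93 by edgeR). The pan-neuronal genes had a median of 0.29 in this comparison, 2 of 8 called higher; scaled to them, Gad2, Slc6a5 and Slc32a1 stayed higher and Glra1 lower, Slc6a9 was called lower (-0.26), and Gad1, Glrb and Gphn were no longer called. Gphn was also not called with no filter on low counts (0.0627) or with only the compared groups fitted (0.097, adjusted p by edgeR). Without untreated WT mouse 4 of the 95-day group 4 members were called; over the 8 fits that left out 1 mouse each, Glrb lost its call in 5, Gphn in 3 and Slc6a5 in 1. Other cell types also differed between the ages in untreated WT mice. All 6 oligodendrocyte genes were called lower at 155 days (median -0.53), and of 8 astrocyte genes 3 were called lower and 1 higher. The 9 caudal Hox genes had a median of 0.66, with 0 called. Age, the make-up of the pieces and any difference in how the 2 age sets were handled cannot be told apart, since the labels give no batch.

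The mean level of Slc6a5 in untreated G93A mice at 155 days (183 ± 66.6 CPM) was close to that in untreated WT mice at 95 days (179 ± 46.9), and the same held for Slc32a1 (137 ± 31.5 against 135 ± 29.7) and Gad1 (104 ± 8.26 against 102 ± 7.38). Gphn was at 56.1 ± 3.89 against 56.7 ± 5.10 CPM. The means of these 4 pairs lay within 1 SD of each other. Gad2 was higher in the older G93A mice (78.8 ± 13.6 CPM) than in the young WT mice (63.3 ± 7.14). Glrb was lower in the older G93A mice (167 ± 31.7 CPM) than in the young WT mice (206 ± 30.03), Glra1 lower still (62.5 ± 4.31 against 128 ± 14.3), and Slc6a9 lower (153 ± 14.7 against 201 ± 14.3). These values are set side by side without a test.

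No member was called for OKN-007. In G93A mice at 155 days 0 of 8 members passed (0.0% of 18675 genes called by edgeR), with log2 fold changes of treated against untreated mice from -0.27 (Slc6a5, 95% interval -0.76 to 0.23) to 0.048 (Gad2, -0.19 to 0.29). Glra1 was at 60.7, 58.4, 62.5 and 68.5 CPM in untreated and at 50.2, 57.7, 58.2 and 57.7 CPM in treated G93A mice. All treated values lay below all untreated ones by a small margin, as in 1 of 8 members and 1.23% of all genes, and the log2 fold change was -0.15 ± 0.10 (95% interval -0.35 to 0.047, adjusted p = 1 by edgeR). The 95% interval was narrowest for Gad1 (-0.13 to 0.16) and Gphn (-0.20 to 0.10). Those for Slc32a1 (-0.47 to 0.13) and Glrb (-0.38 to 0.14) were wider, so that rises of more than 0.13 and 0.14 on the log2 scale lay outside them. In WT mice at 155 days 0 of 8 passed (0.0% of genes), with values from -0.17 (Slc6a9, -0.35 to 0.0074) to 0.14 (Gad2, -0.10 to 0.37).

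At 95 days 0 of 8 members passed in G93A mice (0.0% of 18899 genes called by edgeR), with values from -0.20 (Glra1, 95% interval -0.56 to 0.17) to 0.14 (Gad2, -0.20 to 0.47). In WT mice 0 of 8 passed (0.0% of genes), with values from -0.30 (Slc32a1, -0.65 to 0.043) to 0.33 (Glra1, -0.040 to 0.69). The genotype by treatment interaction called 0 of 8 members at 155 days and 0 of 8 at 95 days (0.0% and 0.0% of genes called). At 155 days its values ran from -0.20 to 0.060. At 95 days Glra1 had a value of -0.52 ± 0.25 (95% interval -1.04 to -0.0041, adjusted p = 1 by edgeR), the 1 member of 8 with an unadjusted p under 0.05, against 2.81% of all genes.

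Of 79 other listed genes of inhibitory transmission and of interneurons in 8 lists, 72 were tested at 155 days. The counts of each list stand against 18.2% of all genes called lower and 21.3% called higher in untreated mice. Among GABA-A receptor subunits, 7 of 15 tested genes were called lower and 1 higher in untreated G93A mice, with a list median of -0.39. The beta2 subunit Gabrb2 changed by -2.08, from low and uneven levels (13.4, 7.89, 11.7 and 1.87 CPM in WT, 3.98, 1.32, 0.902 and 1.92 in G93A) that overlapped. Gabrg1, the gamma1 subunit, was higher (0.40). Of the 3 other glycine receptor alpha subunits Glra3 (-1.01) and Glra2 (-0.51) were called lower. For the GABA-B receptor, Gabbr2 (-0.56) and the auxiliary subunit Kctd8 (-0.55) were lower and Kctd12 (0.57) was higher, among 5 genes.

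The postsynaptic scaffold and adhesion list had 7 lower and 1 higher of 11 tested genes (median -0.42). The adhesion protein Slitrk3 (-0.73) and Lhfpl4 (-0.50), a partner of GABA-A receptors, fell, and Gabarap (0.40) rose. In transport and breakdown, 4 of 10 tested genes were called higher and 2 lower (median 0.028). The astrocytic GABA transporter GAT-3 (Slc6a11) was at 273, 264, 279 and 247 CPM in WT and at 157, 117, 106 and 186 CPM in G93A mice. It fell in all G93A mice, by 0.89 on the log2 scale (edgeR, adjusted p = 6.1e-05), while the astrocyte genes as a list were higher. Aldh5a1, which oxidises succinate semialdehyde from GABA, was lower (-0.32). Of the 4 genes that rose, the furthest were the serine hydroxymethyltransferase Shmt1 (1.33), Gldc of the glycine cleavage system (0.75) and Shmt2 (0.44). Of 4 chloride cotransporters 2 were called lower and 1 higher. KCC2 (Slc12a5), which keeps neuronal chloride low so that GABA and glycine inhibit, was at 567, 526, 572 and 538 CPM in WT and at 383, 344, 331 and 462 CPM in G93A mice. All G93A values lay below all WT values, and the log2 fold change was -0.52 (edgeR, adjusted p = 0.000423). KCC4 (Slc12a7) was higher (0.83).

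Transcription factors of spinal inhibitory interneurons were called lower in 7 and higher in 1 of 13 tested genes (median -0.39). Gata3 (-0.92), Lhx1 (-0.68) and Bhlhe22 (-0.61) fell most, and Prdm13 (1.53) rose. In the list of interneuron subtype markers, which need not be confined to inhibitory cells, 7 of 11 were called lower and 1 higher (median -0.43). Calretinin (Calb2, -0.75), the Renshaw cell receptor subunit Chrna2 (-0.74) and somatostatin (Sst, -0.58) fell most, and Rorb was higher (0.57). In treated mice the medians were -0.41 for GABA-A subunits, -0.34 for the scaffold list and -0.44 for subtype markers. For the other glycine receptor subunits the median was -0.17 with 1 of 3 called lower, against -0.51 and 2 of 3 in untreated mice. The GABA-B list was at -0.28, chloride cotransporters at -0.16 and transport and breakdown at -0.018 in treated mice. The median of the interneuron factors was -0.064 there, with 5 of 13 called lower. At 95 days 0 of 72 of these genes that were tested were called in untreated or treated mice by edgeR.

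**Figure D4:**
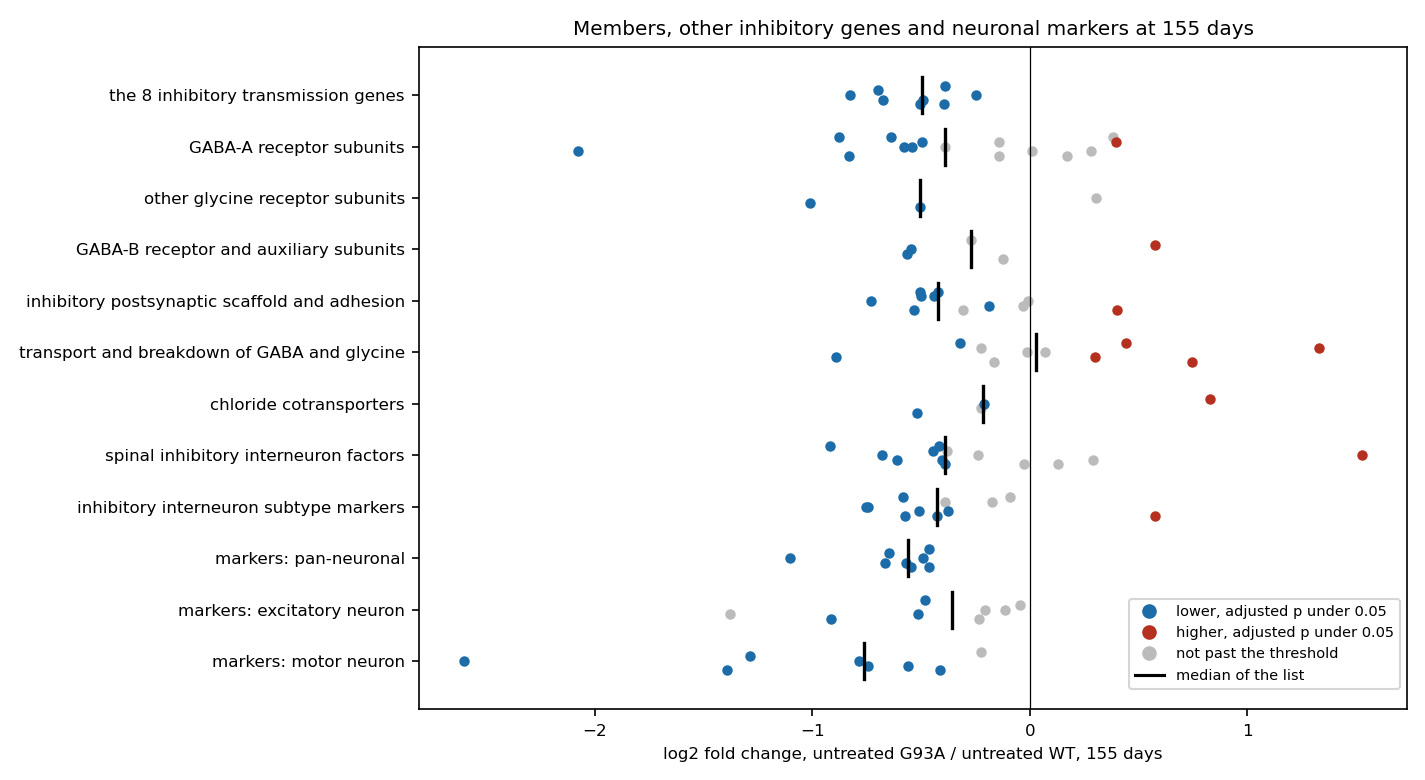
Log2 fold change of untreated G93A against untreated WT mice at 155 days, with 1 point per gene and a black line per list median. Shown are the 8 members, 8 other lists of inhibitory transmission and interneuron genes, and 3 neuronal marker lists. The members' median of -0.50 sits beside that of the pan-neuronal genes (-0.56), and the list of transport and breakdown has its median at 0.028.

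Each member's pattern over the 8 group means was compared with those of 18163 other genes, as the mean absolute difference of centred log2 CPM. Gphn had the closest neighbours, Zfp799 at 0.015 and Lmbr1 at 0.015, and Glrb was near Parm1 (0.023) and Steap2 (0.031). Gad1 was nearest to D3Ertd254e (0.026) and Mpp3 (0.030), and Gad2 to Cadps2 (0.053) and Gprasp1 (0.054). Slc32a1 lay near Clstn3 (0.030) and Kcnh2 (0.034), Slc6a5 near Plcxd2 (0.046) and Syt2 (0.051), and Slc6a9 near Dok7 (0.035) and Tmem250-ps (0.036). Among the members themselves Gphn and Gad1 differed by 0.080, and Slc6a5 and Slc32a1 by 0.081. Glra1 stood apart from the other members, the nearest being Slc6a9 at 0.37. Its nearest genes overall were Gm37814 (0.067) and Gm42919 (0.072), both transcribed within introns of other genes (Frmd4a and Kcnip4) on the same strand.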

How the data were processed

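Polyadenylated RNA of spinal cord (TruSeq Stranded mRNA kit) was sequenced. The deposited values are raw counts per gene that the authors did not normalize. The study's methods name Trimmomatic, STAR, HTSeq and GENCODE M10 on GRCm38, while the submitters' processing notes name FastQC, STAR, featureCounts and edgeR with GRCm39 (and hg38). The table holds 1306 gene IDs newer than those of GENCODE M21, so it was not counted on M10. The strand setting is not given in the sources used here. The human SOD1 transgene was not analysed here. IDs were paired with symbols through GENCODE M21 (41203 of 42524, 96.9%), which also gave coordinates and exon lengths. Counts were analysed with edgeR 4.0.16 in R 4.3.3 (filterByExpr, TMM, glmQLFit, glmQLFTest), with 16 mice in 4 groups per age, or 32 mice in 8 groups for comparisons across ages. SEs were taken from the F statistic. The members and lists were chosen with earlier results of these data known. Of the other lists, up to 3 called genes with the largest rise and 3 with the largest fall are named per list, and 2 nearest genes per member, apart from some genes that are not reported here. The labels name separate mice; intervals and limits cover the spread between mice or counting error only. Alternatives were DESeq2 1.42.0, RLE factors, other filters, fits, thresholds, scaling to pan-neuronal genes (Rbfox3, Snap25, Syt1, Eno2, Tubb3, Map2, Stmn2 and Nefl), a caudal Hox covariate, a replicate block and leaving out each mouse. The procedure was tested on simulated data. Each mouse gave 1 library of at least 19701722 counts.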

Additional observations from a re-analysis of the deposited data

Results flagged for a closer look

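Within groups of 4, the Slc32a1 level of treated WT mouse 5 at 95 days (71.5 CPM), the Slc6a9 level of untreated G93A mouse 11 at 155 days (131 CPM) and the Glra1 level of treated G93A mouse 13 at 155 days (50.2 CPM) stood far from the other 3 mice by Dixon's criterion. This was 3 of 64 member groups checked, where chance gives about 3.2. The G93A effect differed between ages in untreated mice, by the interaction test, for Gad1 (-0.43), Glra1 (-0.69) and Glrb (-0.69) on the log2 scale.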

How the results depend on the processing

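All 8 members kept a negative G93A effect past the threshold at 155 days, untreated and treated, under DESeq2, RLE factors, other filters and fits, an adjusted p under 0.10 and without any 1 mouse. The exceptions for untreated mice were the caudal Hox covariate (5 called), the low Hoxd10 mice left out (5), pan-neuronal scaling (3, higher) and the same without Nefl (1, higher); for treated mice, the caudal Hox covariate (6 called) and the pan-neuronal scalings (3 higher, and 4 without Nefl, of which 3 higher). Called members in the age interaction numbered 5 with DESeq2, 5 with RLE factors, 5 at an adjusted p under 0.10, 5 with a replicate block, 6 without the high Alb mice, 1 without the low Hoxd10 mice, 1 with pan-neuronal scaling without Nefl, and 2 to 7 over fits that left out 1 mouse; called members in the WT age comparison numbered 4 to 7 over such fits. The causes were not tested. With DESeq2 these signs turned: age in WT, Slc6a9 -0.0028. With RLE factors these signs turned: age in WT, Slc6a9 -0.0025. With no filter on low counts these signs turned: the untreated G93A comparison at 95 days, Gad1 -0.016; the treated G93A comparison at 95 days, Glrb 0.0088; OKN-007 in G93A at 95 days, Slc6a9 0.0094. With only the compared groups fitted these signs turned: age in WT, Slc6a9 -0.029. With the caudal Hox covariate these signs turned: OKN-007 in G93A at 95 days, Gad1 -0.028; OKN-007 in G93A at 155 days, Gad1 -0.0072, Gad2 -0.011; OKN-007 in WT at 155 days, Gad1 -0.013. With pan-neuronal scaling these signs turned: the untreated G93A comparison at 155 days, Gad1 0.23, Gad2 0.13, Slc6a9 0.24, Glra1 0.13, Gphn 0.37; the treated G93A comparison at 155 days, Gad1 0.34, Gad2 0.14, Slc6a9 0.40, Glra1 0.17, Gphn 0.45; the untreated G93A comparison at 95 days, Glrb 0.014; the treated G93A comparison at 95 days, Glrb 0.035; OKN-007 in G93A at 155 days, Slc6a9 0.0066, Gphn 0.064; OKN-007 in G93A at 95 days, Slc6a9 0.022; OKN-007 in WT at 95 days, Slc6a9 0.048, Gphn 0.033; the age interaction, Gad1 0.18, Gad2 0.20, Slc6a9 0.33, Gphn 0.39; age in WT, Slc6a9 -0.26, Gphn -0.019. With pan-neuronal scaling without Nefl these signs turned: the untreated G93A comparison at 155 days, Gad1 0.16, Gad2 0.056, Slc6a9 0.17, Glra1 0.056, Gphn 0.30; the treated G93A comparison at 155 days, Gad1 0.24, Gad2 0.046, Slc6a9 0.30, Glra1 0.077, Gphn 0.35; the age interaction, Gad1 0.12, Gad2 0.14, Slc6a9 0.27, Gphn 0.33. Fits without 1 mouse turned the sign of these values, given as ranges: OKN-007 in G93A at 155 days, Gad1 -0.032 to 0.058, Gad2 -0.023 to 0.18; OKN-007 in G93A at 95 days, Gad1 -0.031 to 0.081, Glrb -0.026 to 0.20, Slc6a5 -0.18 to 0.081, Slc6a9 -0.067 to 0.026; OKN-007 in WT at 155 days, Gad1 -0.026 to 0.051, Glrb -0.063 to 0.013, Gphn -0.064 to 0.027, Slc6a5 -0.14 to 0.0089; OKN-007 in WT at 95 days, Gad1 -0.18 to 0.019, Glrb -0.0018 to 0.15, Gphn -0.056 to 0.039, Slc6a9 -0.037 to 0.030; the untreated G93A comparison at 95 days, Gad1 -0.011 to 0.051, Glrb -0.14 to 0.088, Gphn -0.080 to 0.0061, Slc32a1 -0.21 to 0.025, Slc6a5 -0.23 to 0.10; the treated G93A comparison at 95 days, Glrb -0.085 to 0.047, Gphn -0.022 to 0.066, Slc32a1 -0.10 to 0.14, Slc6a5 -0.13 to 0.22; age in WT, Slc6a9 -0.067 to 0.063. None of the values with turned signs passed the threshold in the original fit except, under the pan-neuronal scalings, those of the G93A comparisons at 155 days, Gad1 in the age interaction and Gphn in age in WT. Sample numbers shared by the ages belong to different mice and correlated at -0.18 to 0.20, with 3 of 16 over 0.1 and 3 of 16 best with their own number. No general pairing by number was seen, but with 4 mice per group this check cannot exclude a weak link. Depth did not limit the members, whose lowest value was 719 counts.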
